A study of Mus musculus with 10 samples.

Results

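Hox genes encode homeodomain transcription factors that give cells along the body axis a regional identity, and in mammals they lie in 4 clusters, Hoxa to Hoxd. A gene's paralog number is its place in the cluster: low numbers are used in the head and neck, high numbers in the trunk, tail and distal limb, and connective tissue cells of an adult often keep the combination of their region. The members here were all symbols of the form Hox, cluster letter and number in the array annotation. Of the 39 such genes in the RefSeq gene table, 36 had a probe set that named that gene alone, among 22180 genes measured in all. The other 3 were not analysed here.

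RNA came from subepithelial mesenchyme of the trachea, the connective tissue beneath the airway lining, of 10 male FVB/NJ mice aged 9 weeks with no engineered allele named in the labels. Whole-body exposure to 235 ppm chlorine for 1 hr preceded collection by 4 days in 5 of them, and the other 5 received no treatment. Tissue was lifted from stained frozen sections with a laser, combined over sections of a mouse, and hybridised to 1 array per mouse. The questions were which Hox genes the tracheal mesenchyme showed and whether their levels differed after the injury.

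Levels are log2 intensities, so that a difference of 1 is a 2-fold difference. The tissue held the markers its label calls for: all 10 fibroblast genes examined, such as Dcn and Col3a1, had unexposed means of 7.83 or more. It also held 6 of 6 pan-epithelial genes at 8.30 or more and 10 of 10 cartilage genes at 6.34 or more, so that cells of several kinds contributed. In such bulk tissue, fewer cells of a type and less RNA per cell cannot be told apart. Exposed mouse 3 stood apart from its group, with the lowest pan-epithelial mean (8.27, against 8.93 to 9.26 in the other exposed mice) and the highest fibroblast mean (10.34, against 9.78 to 10.12).

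In unexposed mice the Hox genes whose array signal exceeded a yardstick lay mostly at the head end of clusters A and B. As a yardstick, 1425 odorant, vomeronasal and taste receptor genes, which have no known role in this tissue, had a median log2 value of 2.58 and a 95th percentile of 4.73. The unexposed means of 12 of the 36 Hox genes exceeded that percentile, as did those of 63.7% of all genes. They were Hoxa2 to Hoxa6 without a gap, Hoxb2 to Hoxb5 without a gap, Hoxc10, Hoxd8 and Hoxd10. Of these, 7 also lay above the median of all genes (5.51), and Hoxa4, Hoxa6, Hoxb5, Hoxc10 and Hoxd10 did not. The highest mean of the receptor genes was 7.35, above that of every Hox gene. The nearest on either side of the percentile were Hoxc10, at 4.92 ± 0.42 (SD, n = 5), and Hoxb1, at 4.48 ± 0.18 (SD, n = 5). At the 90th percentile (4.19) 17 Hox genes lay above and at the 99th (6.08) 3 did, namely Hoxa2, Hoxb3 and Hoxb4, percentiles added after the values were seen. Values of different genes come from different probes, and their order is not an order of transcript amounts.

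By paralog number, 4 of 7 genes of groups 1 to 3, 6 of 14 of groups 4 to 8 and 2 of 15 of groups 9 to 13 lay above the yardstick. In the first band, Hoxa2, which patterns the hindbrain and the second pharyngeal arch, stood at 6.79 ± 0.19 (SD, n = 5). Hoxb3 stood at 6.64 ± 0.19 (SD, n = 5) and Hoxb2 at 5.84 ± 0.26 (SD, n = 5). Hoxa3, needed for the thymus and parathyroid, stood at 5.73 ± 0.14 (SD, n = 5). The genes of that band not above the yardstick were Hoxb1, Hoxd1 and Hoxd3, at 4.08 to 4.48.

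In the middle band, Hoxa5 stood at 5.80 ± 0.16 (SD, n = 5); it is the member best known for this organ, since mice without it form malformed tracheal cartilage and lungs. Its paralog Hoxb5, which takes part in airway branching, stood at 5.40 ± 0.046 (SD, n = 5), the smallest SD of any Hox gene here. The third gene of that number, Hoxc5, stood at 2.83 ± 0.49 (SD, n = 5), the largest SD, with unexposed mouse 2 at 3.64 and the others at 2.40 to 2.85. Hoxb4, also studied in blood stem cells, stood at 6.15 ± 0.27 (SD, n = 5), and Hoxa4 and Hoxa6 at 5.26 and 5.25. From Hoxa7 and Hoxb6 onwards the genes of clusters A and B lay at 4.47 or lower.

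The Hoxc and Hoxd clusters differed from this order. No Hoxc gene of groups 4 to 8 lay above the yardstick (2.83 to 4.02), whereas Hoxc10, a gene of lumbar and hindlimb level, lay above it by its mean of 4.92. Its values ran from 4.24 to 5.35 over the 5 mice, with unexposed mouse 1 below the yardstick. In cluster D, Hoxd8 stood at 5.93 ± 0.22 (SD, n = 5) and Hoxd10 at 5.02 ± 0.19 (SD, n = 5), while Hoxd9, which lies between them, stood at 3.02 ± 0.40 (SD, n = 5). In unexposed mouse 1 Hoxd10 also lay just below the yardstick, at 4.727 against 4.729. The genes of groups 11 to 13, such as Hoxa13 and Hoxd13 of the digits and genital tract and Hoxb13 of the prostate, had means of 3.75 to 4.30.

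**Figure D1:**
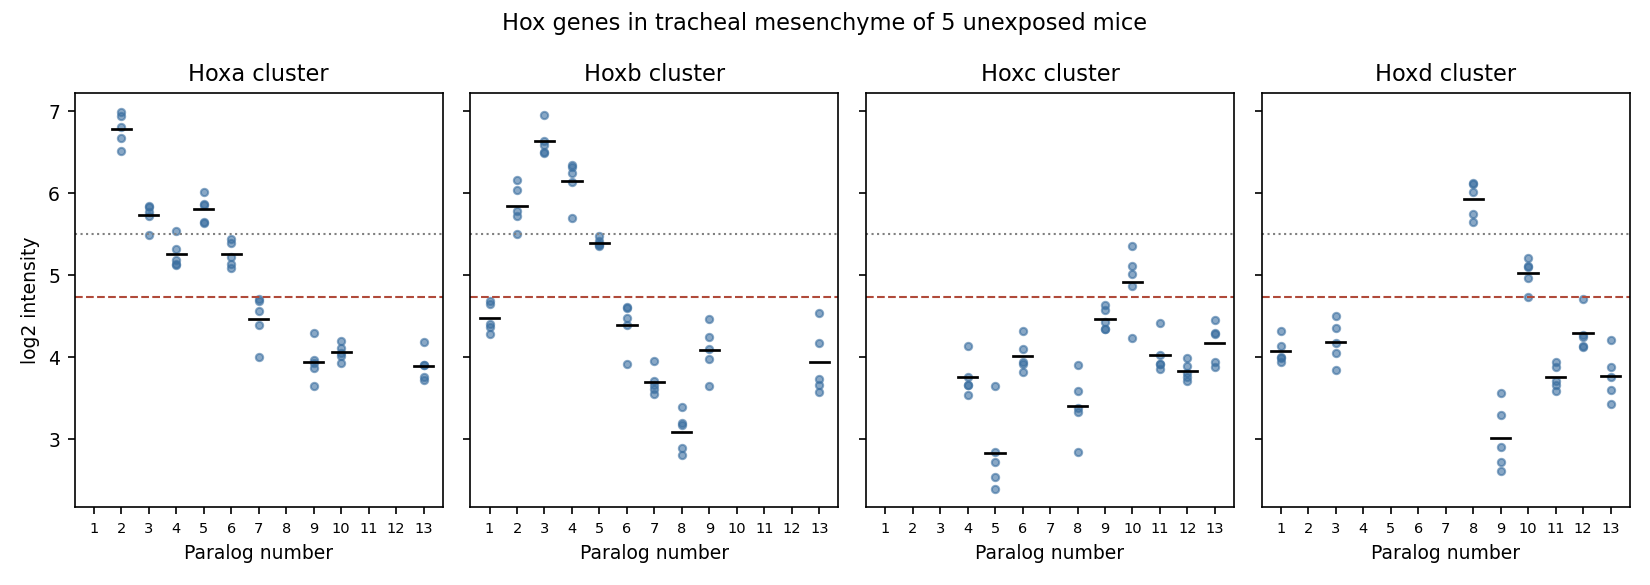
Log2 intensity of the 36 Hox genes in the 5 unexposed mice, by cluster and paralog number, with a point per mouse and a bar at the mean. The dashed line is the 95th percentile of chemosensory receptor genes (4.73) and the dotted line the median of all genes (5.51); the genes above the dashed line in clusters A and B are Hoxa2 to Hoxa6 and Hoxb2 to Hoxb5.

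Promoter sequences are shown for Hoxa5 and for the adjacent Hoxd8 and Hoxd9, which lay on opposite sides of the yardstick. Each runs from 250 bases before to 50 bases after the start of the gene in RefSeq, build GRCm38.p6. Capitals mark AGGTCA or its reverse complement, the hexamer that retinoic acid receptors and other nuclear receptors recognise; retinoic acid is a classic regulator of Hox clusters. The windows were chr6:52204538-52204837 on the minus strand for Hoxa5, chr2:74704365-74704664 on the plus strand for Hoxd8 and chr2:74697513-74697812 on the plus strand for Hoxd9.
Hoxa5: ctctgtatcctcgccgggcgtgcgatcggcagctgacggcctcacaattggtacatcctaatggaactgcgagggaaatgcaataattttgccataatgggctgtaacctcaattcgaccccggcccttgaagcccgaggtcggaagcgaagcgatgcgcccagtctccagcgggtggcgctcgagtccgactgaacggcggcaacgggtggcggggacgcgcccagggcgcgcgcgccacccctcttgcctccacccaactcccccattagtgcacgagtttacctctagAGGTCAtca
Hoxd8: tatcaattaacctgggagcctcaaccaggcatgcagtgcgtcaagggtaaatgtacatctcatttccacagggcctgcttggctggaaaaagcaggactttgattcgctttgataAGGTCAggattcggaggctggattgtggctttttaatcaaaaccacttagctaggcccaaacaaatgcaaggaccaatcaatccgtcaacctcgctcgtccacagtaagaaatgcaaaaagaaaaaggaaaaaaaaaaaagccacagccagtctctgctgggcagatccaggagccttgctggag
Hoxd9: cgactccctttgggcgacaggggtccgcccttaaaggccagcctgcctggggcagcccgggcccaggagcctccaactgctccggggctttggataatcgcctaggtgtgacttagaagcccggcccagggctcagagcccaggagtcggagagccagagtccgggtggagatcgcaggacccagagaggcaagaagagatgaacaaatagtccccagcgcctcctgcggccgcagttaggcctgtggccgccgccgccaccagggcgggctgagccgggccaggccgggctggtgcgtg

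The hexamer occurred once each in the windows of Hoxa5 and Hoxd8 and not in that of Hoxd9. The table of promoters held 22 windows for 20 of the 36 Hox genes. Of the 22 windows, 6 held the hexamer on either strand (27.3%), against 16.3% of all 32851 windows of the same length. They were those of Hoxa5, Hoxb4, Hoxc4, Hoxd3, Hoxd8 and Hoxd10, of which Hoxc4 and Hoxd3 did not lie above the yardstick. CpG dinucleotides numbered 29 in the Hoxa5 window, 6 in that of Hoxd8 and 20 in that of Hoxd9, with a median of 17 over the Hox windows and 7 over all windows. The counts are a description of letters in these windows.

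After chlorine, no Hox gene passed the test in either direction. Of the 36 genes, 0 were higher and 0 lower after exposure by limma (adjusted p under 0.05), in a comparison where 10.8% of all 22180 genes passed (5.85% higher, 4.97% lower after exposure). At an unadjusted p under 0.05 the count was also 0 of 36, against 24.4% of all genes. In the alternative fits described below that count was 0 or 1, the 1 gene being Hoxb5, Hoxc13 or Hoxa7. Among the 14137 genes above the yardstick 14.9% passed, and among the 12 such Hox genes 0. The log2 changes of the 36 genes ran from -0.30 (Hoxc13) to 0.19 (Hoxd9) with a median of -0.031, and the median over all genes was -0.0035. The median size of change, whatever its sign, was 0.095 for Hox genes and 0.159 for all genes, with median standard errors of 0.141 and 0.138.

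The intervals bound differences in array signal of the bulk tissue, not differences in the transcript amount of a cell type. The 95% interval of the log2 change lay within a 2-fold change either way for 36 of 36 Hox genes, as for 89.8% of all genes, and within a 1.5-fold change for 34. The exceptions were Hoxc13, with an interval of -0.65 to 0.055, and Hoxd9, with -0.21 to 0.60. For the 12 genes above the yardstick every interval lay within 1.5-fold. For the other 24 the signal lay below the 95th percentile of genes with no known role here, where array values respond less to the amount of transcript. The intervals are for single genes and were not widened for their number.

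**Figure D2:**
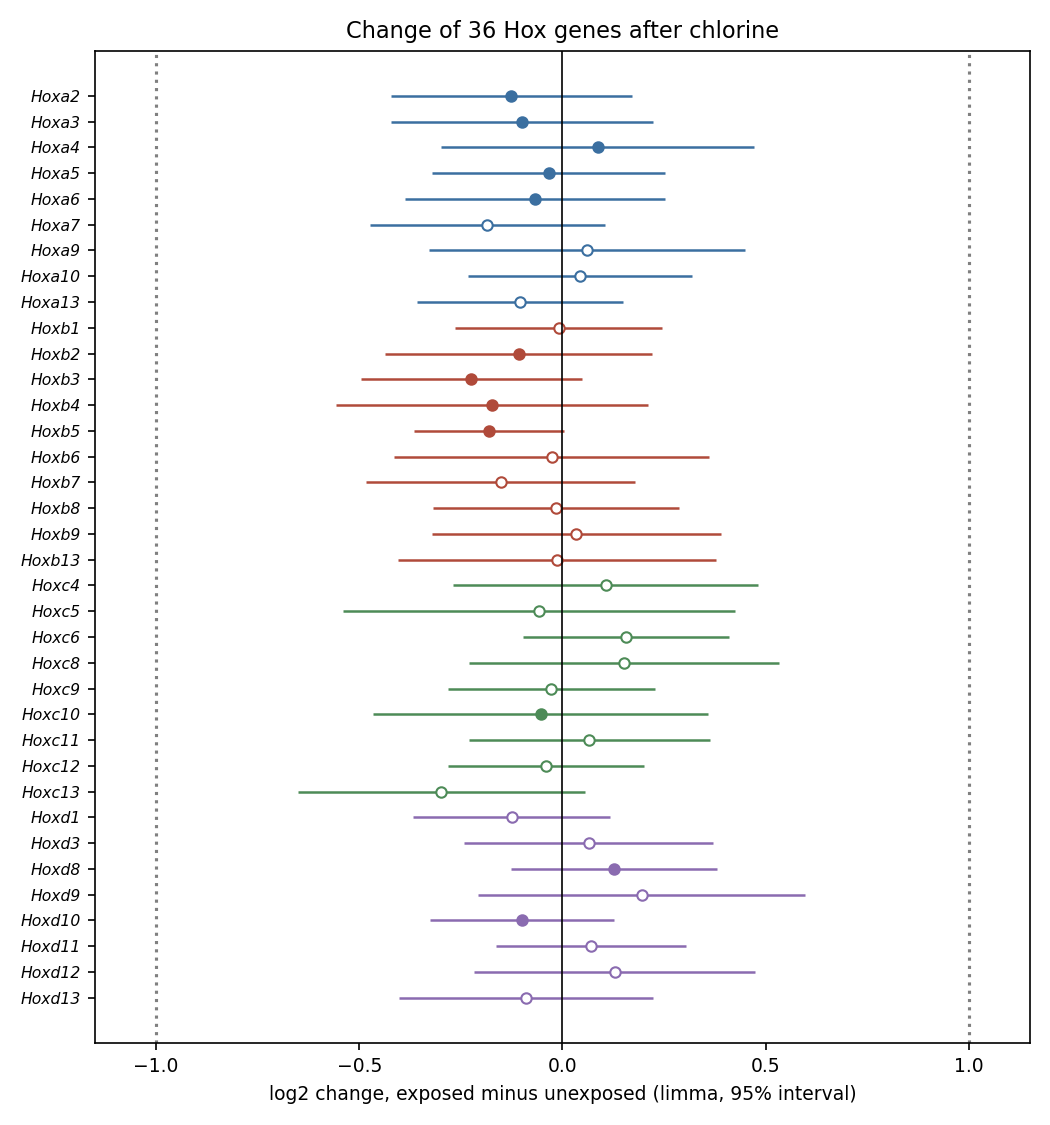
Log2 change of each Hox gene, exposed minus unexposed, with its limma 95% interval, in cluster order (5 mice per group). Filled points are the 12 genes above the chemosensory receptor percentile in unexposed mice, open points the other 24, and dotted lines mark 2-fold; every interval lies inside them and every interval crosses 0.

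Values by mouse are given for the 10 genes with the smallest p and for Hoxa5, with unexposed mice 1 to 5 first. Hoxb5 read 5.36, 5.37, 5.47, 5.41 and 5.38 in unexposed and 5.08, 5.26, 5.33, 5.29 and 5.12 in exposed mice. All 5 exposed values lay below all 5 unexposed ones, and it was the 1 Hox gene of 36 whose groups did not overlap, against 11% of all genes, and 5.06% of all genes were of that kind with the exposed group lower. Its log2 change was -0.18 (SE 0.084, 95% interval -0.36 to 0.0032), or 1.13-fold higher in unexposed mice, and it did not pass (limma adjusted p = 0.214). Hoxb5 has 2 probe sets, which gave different values: the log2 change was -0.30 in one (limma adjusted p = 0.101), with groups that did not overlap, and -0.063 in the other (limma adjusted p = 0.804), with groups that did.

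Hoxb3 read 6.50, 6.59, 6.64, 6.96 and 6.50 in unexposed and 6.58, 6.55, 6.13, 6.51 and 6.28 in exposed mice. The lowest 2 values were those of exposed mice 3 and 5, and the rest of the exposed group lay inside the unexposed range. Its log2 change was -0.22 (SE 0.12, limma adjusted p = 0.306). Hoxb4 read 6.34, 5.69, 6.25, 6.13 and 6.32 in unexposed and 6.12, 6.25, 6.27, 5.63 and 5.59 in exposed mice. Exposed mice 4 and 5 and unexposed mouse 2 were low and the other 7 mice lay at 6.12 to 6.34. Its log2 change was -0.17 (SE 0.18, limma adjusted p = 0.616).

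Hoxa5 read 5.86, 5.65, 5.64, 6.01 and 5.86 in unexposed and 5.54, 5.48, 6.06, 5.85 and 5.92 in exposed mice. The groups overlapped, with exposed mice 1 and 2 lowest and exposed mouse 3 highest of all 10. Its log2 change was -0.034 (SE 0.13, 95% interval -0.32 to 0.25, limma adjusted p = 0.914). Hoxd8 read 6.12, 5.75, 6.12, 6.01 and 5.65 in unexposed and 6.03, 6.14, 5.998, 5.91 and 6.20 in exposed mice. Unexposed mice 2 and 5 were the lowest, and the groups overlapped. Its log2 change was 0.13 (SE 0.12, limma adjusted p = 0.571).

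The other 6 of these genes lay below the yardstick in unexposed mice. Hoxc13, which controls keratin genes of hair and nail, read 4.28, 3.95, 4.45, 3.88 and 4.29 in unexposed and 3.63, 4.02, 4.14, 3.47 and 4.09 in exposed mice. Exposed mice 1 and 4 were the lowest, and the log2 change was -0.30 (SE 0.16, limma adjusted p = 0.294). Hoxa7 read 4.00, 4.68, 4.71, 4.56 and 4.39 in unexposed and 4.31, 4.17, 4.28, 4.31 and 4.36 in exposed mice. Unexposed mouse 1 was the lowest of all 10 and the other 4 unexposed mice were above every exposed one; the log2 change was -0.18 (SE 0.13, limma adjusted p = 0.447). Without unexposed mouse 1 it was -0.30 (limma adjusted p = 0.0987).

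Hoxc6 read 4.10, 3.82, 3.92, 4.32 and 3.94 in unexposed and 4.08, 4.20, 4.42, 4.05 and 4.12 in exposed mice. Hoxd9 read 3.56, 2.61, 2.90, 3.29 and 2.72 in unexposed and 2.92, 3.499, 3.28, 3.12 and 3.25 in exposed mice. Both overlapped, with log2 changes of 0.16 (limma adjusted p = 0.469) and 0.19 (limma adjusted p = 0.584). Hoxd1 read 4.13, 3.99, 4.32, 4.01 and 3.94 in unexposed and 3.97, 3.74, 3.83, 4.12 and 4.11 in exposed mice. Hoxb7 read 3.56, 3.61, 3.66, 3.71 and 3.95 in unexposed and 3.57, 3.48, 3.60, 3.99 and 3.09 in exposed mice. Their log2 changes were -0.12 (limma adjusted p = 0.555) and -0.15 (limma adjusted p = 0.608), and exposed mouse 5 alone held the low value of Hoxb7.

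**Figure D3:**
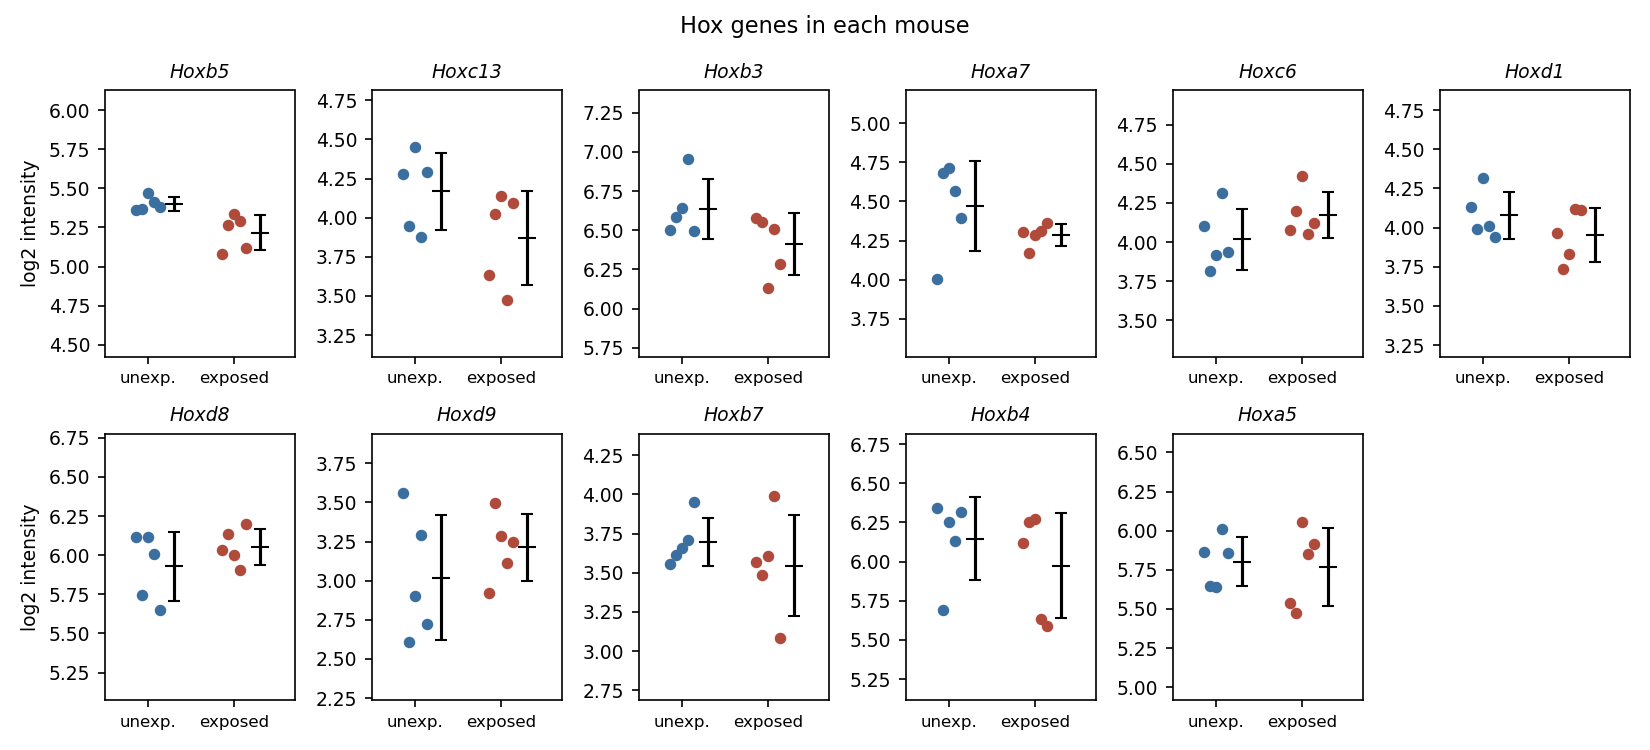
Log2 intensity of 11 Hox genes in each mouse, unexposed (blue) and exposed (red), with the mean and SD of 5 mice in black; every panel spans the same range of log2 units. The groups overlap in every panel except Hoxb5, where the unexposed mice lie at 5.36 to 5.47 and the exposed mice at 5.08 to 5.33.

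The remaining 25 genes had limma adjusted p of 0.626 or more. They include Hoxa2 (-0.13), Hoxa3 (-0.10), Hoxa4 (0.087), Hoxa6 (-0.068), Hoxb2 (-0.11), Hoxc10 (-0.054) and Hoxd10 (-0.10) of those above the yardstick. By cluster, the median log2 change was -0.068 for Hoxa, -0.067 for Hoxb, -0.027 for Hoxc and 0.067 for Hoxd. In cluster B the change was below 0 for 9 of 10 genes, but it was for 5 of 10 with each array centred on its median, a scaling that moved the median of all genes by 0.030. Among the 12 genes above the yardstick the change was below 0 for 10, also under both other scalings, and for 11 without exposed mouse 3. Over all 36 Hox genes it was below 0 for 23, but for 18 with arrays centred. Of all genes measured, 50.6% had a change below 0. No direction of the family as a whole is therefore given, and none was tested.

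Exposed mouse 3 held the highest value of its group in 17 of the 36 genes, against 3 to 7 for each other exposed mouse. These included all 5 genes from Hoxa2 to Hoxa6, a run chosen after its values were seen. Hoxa4 read 5.99 in exposed mouse 3 and 4.97 to 5.38 in the other exposed mice, Hoxa3 read 6.12 against 5.28 to 5.70, and Hoxa6 read 5.61 against 4.88 to 5.31. Hoxb2 and Hoxb3 went the other way, with 5.32 against 5.73 to 5.91 and 6.13 against 6.28 to 6.58. In the same mouse the cartilage mean was 8.02, against 5.88 to 7.17 in the other exposed mice. The smooth muscle mean was 10.34, against 9.63 to 10.08. Its endothelial mean (7.33, against 6.59 to 7.17) and macrophage mean (8.40, against 7.48 to 8.08) were also the highest of the group. So were its neural and glial mean (6.02, against 5.31 to 5.44) and its fibroblast mean. Its basal, esophageal and pan-epithelial means were the lowest, the basal mean at 7.29 against 8.27 or more. Its lymphocyte, skeletal muscle, ciliated, thyroid and proliferation marker means lay within the range of the other exposed mice. The part of these cell types in the Hox values was not tested. Without exposed mouse 3 the change of Hoxa4 turned from 0.087 to -0.072, that of Hoxa3 became -0.22 (limma adjusted p = 0.280) and that of Hoxa6 -0.17 (limma adjusted p = 0.452), and 0 Hox genes passed.

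Hox proteins bind DNA with partners of the Pbx, Meis and Pknox families. Of the 8 such cofactors measured, 0 rose and 0 fell by limma (3 at an unadjusted p under 0.05), with a median log2 change of -0.12. Over all genes 10.8% passed, and 24.4% had an unadjusted limma p under 0.05. Pknox1 was closest to the threshold, at 5.69 ± 0.23 in unexposed and 5.25 ± 0.25 in exposed mice (SD, n = 5 each; log2 change -0.44, SE 0.15, limma adjusted p = 0.083), and without exposed mouse 1 it passed (-0.51, limma adjusted p = 0.0436). Meis1 stood at 8.27 ± 0.12 and 8.03 ± 0.13 (SD, n = 5 each; limma adjusted p = 0.163).

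Homeobox genes that lie beside the clusters or share their origin, such as the Cdx and Evx genes, gave 0 of 10 passing by limma (1 at an unadjusted p under 0.05) and a median change of 0.0050. Mnx1 (0.37, limma adjusted p = 0.111) and Evx2 (-0.25, limma adjusted p = 0.328) had the smallest p. Of 16 non-coding genes of the clusters 7 were measured and 0 passed (0 at an unadjusted p under 0.05), with a median of 0.051. In both lists, 2 of the measured genes lay above the yardstick. Over all genes 10.8% passed, and 24.4% had an unadjusted limma p under 0.05. Of the genes not above the yardstick 3.58% passed. The log2 change of Hotair, transcribed from the Hoxc cluster, was 0.051 (limma adjusted p = 0.877), that of Hoxaas3 -0.099 (limma adjusted p = 0.757) and that of Hoxd3os1 0.074 (limma adjusted p = 0.836), 3 genes picked with their values in view.

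The clusters also carry miRNA genes, which are known to repress Hox messages. Their RefSeq mature sequences are shown with the seed, bases 2 to 8, in capitals, because the copies in different clusters share it.
mmu-miR-10a-5p, Hoxb cluster: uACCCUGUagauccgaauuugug
mmu-miR-10b-5p, Hoxd cluster: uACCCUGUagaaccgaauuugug
mmu-miR-196a-5p, Hoxb and Hoxc clusters: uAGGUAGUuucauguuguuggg
mmu-miR-196b-5p, Hoxa cluster: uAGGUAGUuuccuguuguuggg

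The miR-10 pair share the seed ACCCUGU and the miR-196 genes the seed AGGUAGU. The array has probe sets for the precursor genes, and the values below say nothing of the mature forms. Mir10b read 1.72 to 2.49 in unexposed and 1.46 to 2.25 in exposed mice (log2 change -0.21, limma adjusted p = 0.558). Mir615, from the Hoxc cluster, read 3.48 to 4.12 and 3.84 to 4.21 (log2 change 0.23, limma adjusted p = 0.322). The log2 changes of Mir196a-1 and Mir196a-2 were -0.15 and 0.11 (limma adjusted p = 0.606 and 0.785), both picked with their values in view. Mir10a and Mir196b were not measured by a probe set of their own.

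Of 24 transcription factors of the tracheal mesenchyme and its surroundings measured, 1 rose, 2 fell and 21 did not pass, with a median log2 change of -0.067. Over all genes 10.8% passed, a share close to that of this list. Tcf21, a factor of mesenchymal fibroblast precursors, rose 1.63-fold, from 6.73 ± 0.29 to 7.44 ± 0.18 (SD, n = 5 each; SE 0.15, limma adjusted p = 0.00988). Its unexposed range of 6.32 to 7.07 and exposed range of 7.23 to 7.62 did not overlap. Of the 10 fibroblast markers 3 rose (Pdgfra, Col1a1 and Col3a1) and 0 fell, with list means of 9.54 to 9.85 in unexposed and 9.78 to 10.34 in exposed mice, and their part in the Tcf21 value was not tested. Foxp2 and Tbx2 fell by 0.38 and 0.36 on the log2 scale (limma adjusted p = 0.0334 and 0.046). Foxp2 lost its call in 6 of the 10 fits with a mouse left out (those lacking exposed 2, 3 or 4 or unexposed 1, 4 or 5; adjusted p 0.0175 to 0.081 over the 10), and Tbx2 in 9, all but that without exposed mouse 1 (0.0427 to 0.106). With the mouse number as a block both lost it (0.0602 and 0.116), and Tbx2 also with arrays centred (0.0629), after another quantile normalization (0.0571) and with trend and robust settings (0.0573). The log2 changes of Tbx4 and Tbx5, which mark respiratory mesenchyme, were -0.27 (limma adjusted p = 0.351) and 0.20 (limma adjusted p = 0.379). That of Nkx2-1, the epithelial factor of trachea and lung, was -0.83 (limma adjusted p = 0.0903), and these 3 were picked with their values in view.

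Polycomb proteins keep unused Hox genes silent and Trithorax proteins keep used ones active. Of 23 measured, 1 rose, 1 fell and 21 did not pass, with a median log2 change of -0.072, against 10.8% of all genes passing. Ezh2, the histone methyltransferase of Polycomb repressive complex 2, rose 1.71-fold, from 6.88 ± 0.19 to 7.65 ± 0.14 (SD, n = 5 each; SE 0.11, limma adjusted p = 0.00132). All 5 exposed mice, at 7.46 to 7.86, lay above all 5 unexposed mice. Of 7 proliferation markers measured, 7 rose, with list means of 5.20 to 5.56 in unexposed and 7.23 to 8.10 in exposed mice; their part in the Ezh2 value was not tested. Cbx7, a chromodomain reader of the Polycomb mark, fell by 0.35 on the log2 scale (SE 0.093, limma adjusted p = 0.0343). Cbx7 lost its call in 7 of the 10 fits with a mouse left out (those lacking exposed 2, 4 or 5 or unexposed 1, 2, 3 or 4; adjusted p 0.0295 to 0.0846 over the 10). It also lost it with arrays centred (0.0529), with trend and robust settings (0.0502) and with the block (0.0969).

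Retinoic acid, made from vitamin A, switches on low-numbered Hox genes through its nuclear receptors. Of 17 genes of its synthesis, binding and reception measured, 3 rose, 2 fell and 12 did not pass, with a median log2 change of -0.11, against 5.85% of all genes higher and 4.97% lower. Among enzymes, Aldh1a3, which makes retinoic acid, rose 2.98-fold, from 5.12 ± 0.16 to 6.69 ± 0.12 (SD, n = 5 each; SE 0.10, limma adjusted p = 1.88e-05). Rdh10, which makes its precursor, was 2.21-fold higher in unexposed mice, at 8.26 ± 0.23 against 7.12 ± 0.22 (SD, n = 5 each; SE 0.14, limma adjusted p = 0.000444). Neither gene's groups overlapped. Aldh1a1 (-2.13, limma adjusted p = 0.075) and Aldh1a2 (0.75, limma adjusted p = 0.141), picked with their values in view, did not pass. The Aldh1a1 groups did not overlap either, at 12.38 to 12.58 in unexposed and 7.16 to 11.58 in exposed mice, with exposed mouse 3 the lowest. Those of Aldh1a2 overlapped. Over all genes, 11% had groups that did not overlap.

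Among binding proteins, Crabp2, which carries retinoic acid to the nucleus, rose 4.53-fold, from 5.53 ± 0.35 to 7.71 ± 0.50 (SD, n = 5 each; SE 0.24, limma adjusted p = 0.000236). Crabp1 rose 1.73-fold (limma adjusted p = 0.0475), with overlapping groups, and lost its call with the block (0.102) and in 8 of the 10 fits with a mouse left out, the exceptions being those that lacked exposed 5 or unexposed 4 (0.0217 to 0.107 over the 10). Rarb, a receptor gene that is itself induced by retinoic acid, fell by 0.70 on the log2 scale (SE 0.13, limma adjusted p = 0.00473). It read 6.36, 6.18, 6.40, 6.35 and 5.86 in unexposed and 5.65, 5.43, 5.40, 5.40 and 5.77 in exposed mice, with no overlap. Basal epithelial markers gave list means of 6.69 to 7.17 in unexposed and 7.29 to 8.4998 in exposed mice (3 of 6 rose, 0 fell). Those that rose were Krt14, Dsg3 and Col17a1, with log2 changes of 4.31, 3.96 and 0.53. Trp63, Krt15 and Ngfr, with log2 changes of -0.40, -0.52 and -0.12, did not pass. Of 7 ciliated cell markers 4 fell and 0 rose, with list means of 8.34 to 8.90 in unexposed and 4.51 to 8.15 in exposed mice. Of 8 macrophage markers 7 rose and 0 fell, with list means of 6.52 to 7.17 in unexposed and 7.48 to 8.40 in exposed mice. Of 7 esophageal epithelium markers 4 rose and 0 fell, with list means of 4.43 to 5.29 in unexposed and 5.23 to 7.58 in exposed mice. The part of these cell types in the retinoic acid changes was not tested. Beside them, Hoxa5, Hoxb4, Hoxd8 and Hoxd10, whose windows held the AGGTCA hexamer and which lay above the yardstick, had log2 changes of -0.034, -0.17, 0.13 and -0.10. Only 7 of the 12 Hox genes above the yardstick had a promoter window, and the hexamer occurred in 16.3% of all windows. The difference between the retinoic acid genes and the Hox genes was not tested.

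**Figure D4:**
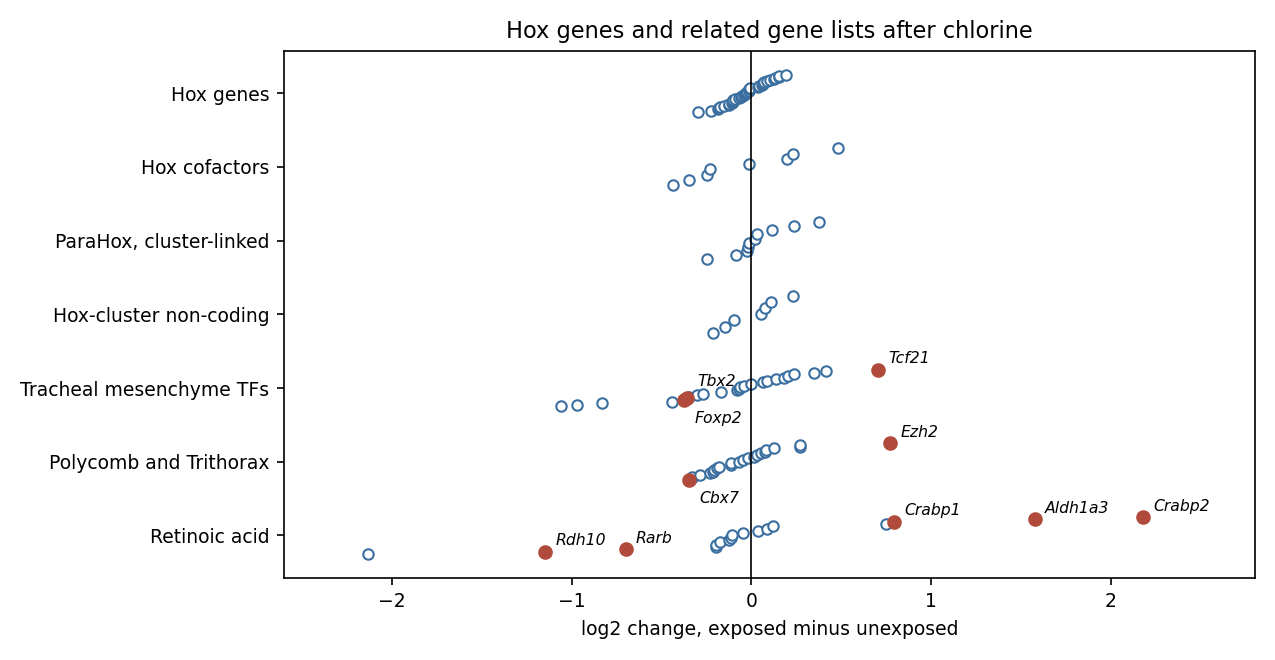
Log2 change, exposed minus unexposed, of the Hox genes and of 6 related gene lists, with a point per gene; filled points passed the limma test at an adjusted p under 0.05 and are named. The 36 Hox genes lie between -0.30 and 0.19 with 0 filled, and the retinoic acid list holds 5 filled points from -1.1455 (Rdh10) to 2.18 (Crabp2).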

How the data were processed

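Each of the 10 arrays holds tissue of a separate mouse. Per the labels' protocols, the PicoPure kit served for RNA and the Affymetrix WT Plus kit for labelling. The deposited values are log2 intensities per probe set, made by the authors by robust multi-array averaging (RMA) with Partek 6.6, per the submitters' processing notes; RMA settings, filters and the annotation's genome build were not given in the sources used here; base 2 was inferred from how the values range. Array medians were 5.10 to 5.18. Scanner files were not used here, so no detection call was used, and precision is limited by how many arrays there are.

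Of 41345 probe sets, 23521 had 1 symbol, 1814 several and 16010 none in the platform annotation. A gene's value was the mean of its single-symbol probe sets; 35 of the 36 Hox genes had 1 and Hoxb5 2. Paralogous Hox genes share homeodomain sequence that probes may not fully separate. Symbols were compared by gene identifier with RefSeq (GRCm38.p6), and 0 changed. The exposed and unexposed arrays were fitted in R 4.3.3 by limma 3.58.1 (lmFit, eBayes, two-sided, no covariate), with Benjamini-Hochberg adjustment over 22180 genes, after a test on simulated data. Intervals are limma's. Named were the 10 Hox genes of smallest p, Hoxa5, and from each of 6 related lists up to 3 called genes in each direction or, if none, the 2 of smallest p. Members and lists were chosen with earlier results of these data known. Alternatives were another quantile normalization, centring, filters on dim genes, brightest and single probe sets, array weights, eBayes with trend and robust options, mouse number as a blocking factor, leaving out single mice or exposed mice 1 and 3 together, a pan-epithelial covariate and adjusted p under 0.01 or 0.1. Summaries used pandas 2.3.3 under Python 3.11.15; matplotlib 3.10.9 drew the plots.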

Additional observations from a re-analysis of the deposited data

Results flagged for a closer look

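In 3 of 104 groups of 5 mice examined (36 Hox genes and 16 related genes, each in both groups), 1 mouse lay far from the other 4 by Dixon's ratio; chance gives about 1 in 20 such groups. Hoxb6 read 4.94 in exposed mouse 3 and 4.13 to 4.29 in the other exposed mice. Hoxd12 read 4.71 in unexposed mouse 5 and 4.12 to 4.27 in the other unexposed mice. Mir10b read 2.49 in unexposed mouse 1 and 1.72 to 1.86 in the other unexposed mice. None of these genes passed the comparison of exposed with unexposed mice (limma adjusted p = 0.955, 0.689 and 0.558).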

How the results depend on the processing

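The counts of 0 Hox genes higher and 0 lower held under all 23 alternatives, including the 10 fits with a mouse left out and the fit with the mouse number as a block, in which 1026 genes were higher and 854 lower in all; the lowest adjusted p of a Hox gene over the 21 alternative fits was 0.0987 (Hoxa7 without unexposed mouse 1). The median Hox change ran from -0.11 to 0.021, and with a filter on dim genes it rested on 12 or 7 Hox genes; the other named Hox genes have no value there. With a mouse left out the log2 change of Hoxa5 was -0.11 to 0.039, above 0 without exposed mouse 1 or 2 or unexposed mouse 4. Over all genes, 619 were higher and 435 lower at an adjusted p under 0.01, 1659 were lower at 0.1, and 723 to 1407 were lower with a mouse left out. Genes of the related lists called lower numbered 5, but 3 with arrays centred, 2 with the block, 2 at 0.01 and 2 to 8 with a mouse left out. At the 99th percentile of chemosensory genes 3 Hox genes lay above. The mouse numbers did not pair the groups: same-numbered mice gave correlations of deviations of -0.049 to 0.12 across genes, over 0.1 in 2 of 5 pairs, and 1 of 5 exposed and 1 of 5 unexposed mice correlated best with its own number. The block ended the calls of Tbx2, Foxp2, Cbx7 and Crabp1 and of none of the other named genes. No Hox gene at or below the signal of chemosensory genes can be called absent. Apart from where calls are said to be lost, the cause of these shifts was not tested.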
